A study of Mus musculus with 8 samples.

Results

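Matrix metalloproteinases (MMPs) and their tissue inhibitors (TIMPs) were examined in macrophages of mice with and without gasdermin D. The members were 7 MMP genes (Mmp2, Mmp8, Mmp9, Mmp12, Mmp13, Mmp14 and Mmp19) and 3 TIMP genes (Timp1, Timp2 and Timp3), found by symbol as 10 of the 54532 genes in the count table, each on 1 row. Untreated bone marrow-derived macrophages (BMDMs) of wild-type (WT) and Gsdmd-/- mice were sequenced at day 6 of differentiation, in 4 libraries per genotype. The methods give M-CSF for the culture and female C57BL/6J mice of 6 to 8 weeks as the source of the marrow, without separating the genotypes. They describe the Gsdmd-/- line as a knockout received from another laboratory, and state no separate age or sex for it. Whether the libraries are from different mice is not given in the labels or the methods, so the p-values measure the spread between these libraries, which may be technical.

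MMPs are zinc endopeptidases that are made as inactive precursors and cut collagens, elastin, gelatins and other matrix or secreted proteins once a propeptide is removed. TIMPs bind the active site and block it, and Timp2 is also known to link the precursor of Mmp2 to Mmp14 at the cell surface, where Mmp14 activates it. Macrophages are known as the main source of Mmp12, the macrophage metalloelastase, whereas Mmp8 and Mmp9 are better known from neutrophils, and Mmp2 and the TIMPs from stromal cells.

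Each library held between 14935114 and 16794810 counts, and the ranges of the genotypes overlapped. Gsdmd itself, the targeted gene, lay between 63.5 and 95.5 CPM (counts scaled to library size) in WT and between 14.4 and 18.2 CPM in Gsdmd-/- libraries. WT 2 and WT 3 stood apart from the other 6 libraries on the first principal component, which held 43.6% of the variance: they scored 45.4 and 38.8, and the others between -25.9 and -7.19. Results that rest on WT 2 and WT 3 are therefore given with and without them. The macrophage markers (12 genes, Lyz2 the most abundant) were all tested and none was called between the genotypes at either cutoff used here, with 8 of 12 log2 fold changes below 0. Adgre1 (F4/80), chosen after its values were seen, was lower in Gsdmd-/- without overlap (log2 fold change -0.24, edgeR adjusted p = 0.310), as were 4.12% of all genes tested. The summed level of the macrophage markers, most of it Lyz2 (log2 fold change 0.20), was 23986, 16411, 18287 and 26112 CPM in WT 1 to WT 4 and between 21252 and 25092 CPM in Gsdmd-/-, so WT 2 and WT 3 stood below all Gsdmd-/- libraries and WT 4 above them.

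Mmp13, Mmp12 and Mmp8, which with Mmp19 were the 4 MMPs of highest level, lie in a cluster on chromosome 9, and the 100 bases before their RNA starts are shown because MMP promoters are known to carry sites for AP-1, the dimer of Fos and Jun proteins, whose genes are among the regulators counted here. Sequences are from RefSeq (GRCm38.p6, plus strand, 5′ to 3′), at chr9:7272414-7272513 for Mmp13, chr9:7347274-7347373 for the downstream one of the Mmp12 starts and chr9:7558329-7558428 for Mmp8. Capitals mark an exact match to TGANTCA (N is any base), a pattern that reads as itself on the other strand and so covers both.
Mmp13: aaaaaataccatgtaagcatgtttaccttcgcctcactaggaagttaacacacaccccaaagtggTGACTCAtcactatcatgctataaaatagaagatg
Mmp12: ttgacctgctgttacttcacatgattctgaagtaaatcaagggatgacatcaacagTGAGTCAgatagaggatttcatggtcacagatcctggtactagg
Mmp8: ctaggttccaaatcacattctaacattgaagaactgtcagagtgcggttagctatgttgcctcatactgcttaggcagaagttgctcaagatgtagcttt

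The match began 35 bases before the start of Mmp13 and 44 bases before the start of Mmp12. Promoter windows of 250 bases before to 50 bases after the start were given for 7 of the 10 members (Mmp8, Mmp12, Mmp13, Mmp14, Timp1, Timp2 and Timp3), and the pattern was found in 2 of these 7 genes, against 8.97% of the 27025 genes with a window. The 7 members had 8 windows, Mmp12 having a further start without a match, and 2 of the 8 held the pattern against 7.81% of all 32851 windows. These are matches of letters, and binding was not measured.

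BMDMs of both genotypes expressed a set of MMPs led by Mmp12 and 1 TIMP, Timp2, in quantity. Levels of different genes were compared as RPKM (CPM divided by the exon length in kilobases). In WT, Mmp12 reached 2572 ± 165 RPKM (SD, n = 4), above Mmp8 at 312 ± 52.0, Mmp19 at 248 ± 59.1 and Mmp13 at 246 ± 26.4 RPKM. The ranges of Mmp8, Mmp19 and Mmp13 overlapped from each gene to the next, and that of Mmp12 did not overlap with any. Timp2 followed at 92.9 ± 25.0 and Mmp14 at 26.2 ± 13.4 RPKM, each without overlap with its neighbours in the order. Timp1 (2.06 ± 0.913 RPKM) and Mmp2 (0.999 ± 0.258 RPKM) overlapped, and Mmp9 stood below them at 0.133 ± 0.0663 RPKM. In Gsdmd-/- the order of the genes was the same, with Mmp12 at 2850 ± 141 RPKM, and the step from Mmp19 (242 ± 9.47 RPKM) to Mmp13 (185 ± 7.11 RPKM) was then without overlap. The summed RPKM of the 7 MMPs was between 27.3 and 50.2 times that of the 3 TIMPs in WT and between 34.3 and 41.6 times in Gsdmd-/-, with no separation of the genotypes.

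Timp3, an inhibitor that stays bound to the matrix and also blocks some ADAM proteases, was not detectable at this depth. It had 0 counts in 7 libraries and 1 count in Gsdmd-/- 4, and the limit set by a count of 0, taken as 3 counts, lies between 0.179 and 0.186 CPM of the total of those 7 libraries (counting error only). Timp3 did not pass the filter on low counts, so 9 of the 10 members were tested.

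**Figure D1:**
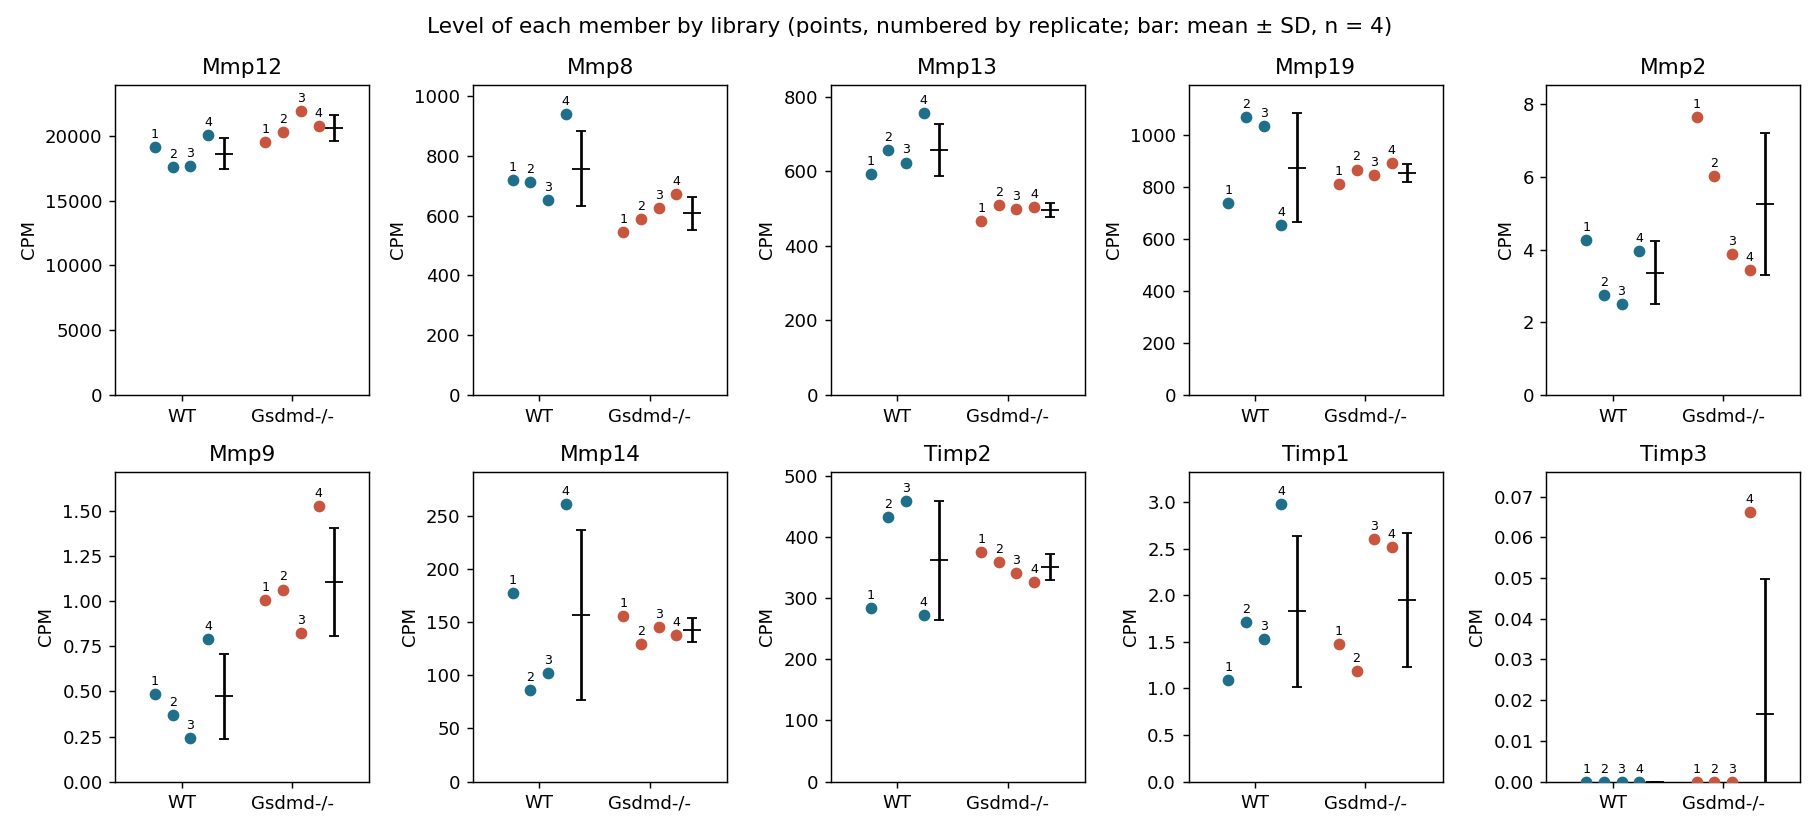
CPM (linear axes from 0, a scale of its own for each gene) of the 10 members in the 4 WT (blue) and 4 Gsdmd-/- (red) libraries, with points numbered by replicate and black bars for the mean ± SD. Mmp13 was lower and Mmp9 higher in all Gsdmd-/- libraries than in any WT library, and Mmp14, Mmp19 and Timp2 spread widely in WT and narrowly in Gsdmd-/-.

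No member was called at an adjusted p under 0.05 in either direction (edgeR quasi-likelihood test, two-sided, Benjamini-Hochberg adjustment over the 12911 genes tested), where 18 genes (0.139%) were called higher and 27 (0.209%) lower in Gsdmd-/-. At an unadjusted p under 0.05, 2 members were higher (Mmp2 and Mmp9) and 2 were lower (Mmp8 and Mmp13), against 4.74% and 7.30% of all genes tested. With DESeq2 and with the exact test of edgeR, 1 member was called lower at an adjusted p under 0.05, namely Mmp13. At the cutoff that the study states, an unadjusted p under 0.05 and a log2 fold change of 0.5 or more in size, 2 members were higher and 0 were lower, against 1.54% and 3.28% of genes. The libraries of the genotypes did not overlap in 1 member that was higher (Mmp9) and 1 that was lower (Mmp13), against 3.48% and 4.12% of genes. The median log2 fold change of the 9 members was -0.03, with 4 above 0 and 5 below, and that of all genes tested was -0.01.

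Mmp12 was the most abundant member and ranked 3 among all genes tested by mean CPM (chromosome 9, 7344381 to 7369499, plus strand, GRCm38). It had 19144, 17594, 17664 and 20045 CPM in WT 1 to WT 4 and 19498, 20318, 21942 and 20756 CPM in Gsdmd-/- 1 to 4. The 3 highest libraries were Gsdmd-/- libraries, but the lowest of that genotype stood below WT 4, so the groups overlapped. Mean levels were 18611 ± 1193 and 20629 ± 1019 CPM (SD, n = 4), and the log2 fold change of 0.15 (SE 0.0913, 95% interval -0.05 to 0.35) did not pass the test (edgeR adjusted p = 0.567). Without WT 2 and WT 3 it was 0.07. Mmp12 alone took between 1.74% and 1.98% of all counts in WT and between 1.96% and 2.14% in Gsdmd-/-. Of the summed RPKM of the 7 MMPs, it made up between 73.9% and 77.7% in WT and between 79.4% and 81.0% in Gsdmd-/-, a share that did not overlap between the genotypes and was not tested. The share also depends on the other MMPs. Their summed RPKM without Mmp12 was between 759 and 901 in WT and between 658 and 743 in Gsdmd-/-, while Mmp12 itself overlapped.

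The collagenases Mmp13 and Mmp8, which cut fibrillar collagen, had lower means in Gsdmd-/- BMDMs. Mmp13 (chromosome 9, 7272514 to 7283331, plus strand) had 593, 658, 624 and 756 CPM in the WT and 468, 510, 499 and 505 CPM in the Gsdmd-/- libraries. The lowest WT library stood above the highest Gsdmd-/- library, and the Gsdmd-/- values lay within a narrow band. The mean went from 658 ± 70.7 to 495 ± 19.0 CPM (SD, n = 4), 24.7% lower, with a log2 fold change of -0.41 (SE 0.0925, 95% interval -0.61 to -0.20). The edgeR quasi-likelihood p was 0.00121 and the adjusted p 0.115, over the threshold. The direction was the same under each alternative, with a log2 fold change between -0.45 and -0.33 and an adjusted p between 0.00171 (DESeq2) and 0.393 (edgeR without Gsdmd-/- 1). The p of 0.0286 in an exact permutation test of CPM, two-sided, is the smallest that 4 against 4 libraries can give, and was not adjusted for the 10 members.

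Mmp8 (chromosome 9, 7558456 to 7568485, plus strand), the enzyme first known from neutrophil granules, had 721, 713, 653 and 940 CPM in WT and 545, 587, 626 and 671 CPM in Gsdmd-/-. Only Gsdmd-/- 4 reached past a WT library, WT 3, and WT 4 stood above all others. The means were 757 ± 126 and 607 ± 54.0 CPM (SD, n = 4), a log2 fold change of -0.32 (SE 0.123, edgeR adjusted p = 0.346), which was -0.19 without WT 4 and -0.45 without WT 2 and WT 3. Markers of neutrophils were near 0 beside this level. Of 14 such genes, 4 were tested and none was called at either cutoff. Their summed level was between 11.7 and 19.0 CPM in WT, the highest being WT 4, and between 14.5 and 15.7 CPM in Gsdmd-/-, S100a8 was the most abundant, and Ly6g and Retnlg had 0 counts in all libraries.

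**Figure D2:**
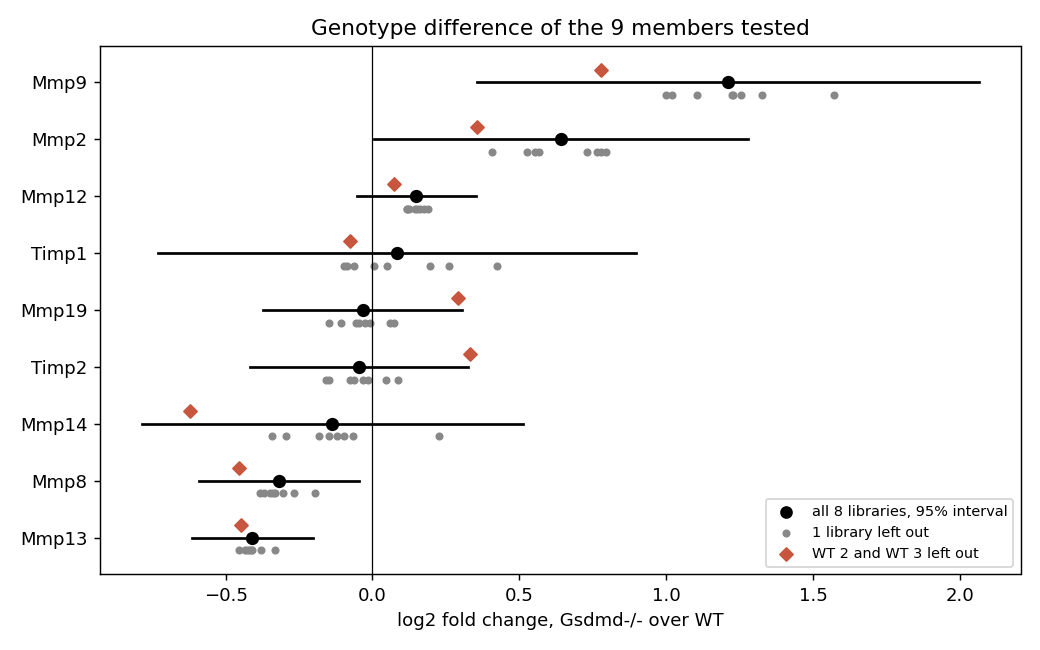
Log2 fold change of Gsdmd-/- over WT for the 9 members tested (black points, with lines for the 95% interval of the edgeR fit), with each of the 8 libraries left out in turn (grey points) and with WT 2 and WT 3 left out together (red diamonds). Mmp9, Mmp2 and Mmp12 stayed above 0 and Mmp8 and Mmp13 below 0 in all of these fits, and Timp1, Mmp19, Timp2 and Mmp14 crossed 0 in at least 1.

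The gelatinases Mmp9 and Mmp2, which degrade denatured collagen and basement membrane collagen, were higher at the study's cutoff, both from low levels. Neither call held without WT 2 and WT 3, and that of Mmp2 was also lost with RLE factors, with limma voom, with a filter of 10 counts per library (log2 fold changes of 0.64, 0.61 and 0.64, with p between 0.0502 and 0.0626) and without any 1 of WT 2, WT 3, Gsdmd-/- 1 and Gsdmd-/- 2. Both genes are also labelled in a pathway plot that the study drew from these libraries, so the call is not independent evidence. Mmp9 (chromosome 2, 164940780 to 164955850, plus strand) had 0.487, 0.367, 0.244 and 0.791 CPM in WT and 1.01, 1.06, 0.825 and 1.53 CPM in Gsdmd-/-, from 31 and 71 counts over the 4 libraries of each genotype. All Gsdmd-/- libraries were above all WT libraries, although WT 4 and Gsdmd-/- 3 each had 13 counts and were kept apart only by the scaling to library size. The log2 fold change was 1.21 (SE 0.385, 95% interval 0.36 to 2.06) with an edgeR p of 0.0101 and an adjusted p of 0.264. It was 1.57 without WT 4 and 0.78 without WT 2 and WT 3, with an adjusted p between 0.0920 and 0.546 over the alternatives (edgeR, DESeq2 and limma).

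Mmp2 (chromosome 8, 92827291 to 92853420, plus strand) had 4.26, 2.75, 2.50 and 3.96 CPM in WT and 7.64, 6.03, 3.87 and 3.45 CPM in Gsdmd-/-. Gsdmd-/- 1 and 2 were above all WT libraries, and Gsdmd-/- 3 and 4 lay within the WT range. The log2 fold change of 0.64 (SE 0.287, edgeR adjusted p = 0.409) was 0.41 without Gsdmd-/- 1 and 0.36 without WT 2 and WT 3. Stromal cells are known to make Mmp2, and of 14 stromal markers 6 were tested and none was called at either cutoff. Their summed level was 22.6, 35.9, 36.5 and 25.8 CPM in WT and 29.7, 28.0, 31.0 and 31.2 CPM in Gsdmd-/-, with Ptn at 0 in all libraries. Gsdmd-/- 1 and 2 thus stood below Gsdmd-/- 3 and 4 in this sum, unlike for Mmp2. Of the 6 tested markers, 3 had a log2 fold change above 0 and 3 below (median 0.04). Lox, a collagen crosslinking enzyme and the most abundant of them, had 10.7, 9.59, 8.98 and 10.9 CPM in WT and 15.6, 15.7, 10.5 and 10.7 CPM in Gsdmd-/-, so that Gsdmd-/- 1 and 2 were its highest libraries, as for Mmp2 (log2 fold change 0.39, SE 0.164, edgeR adjusted p = 0.388). The part of stromal cells in the level of Mmp2 was not tested. In bulk RNA, fewer cells of a type and less RNA per cell cannot be told apart.

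Mmp14, the membrane-bound MMP that activates the precursor of Mmp2, did not differ beyond the spread between libraries, and most of that spread was in WT. Mmp14 (chromosome 14, 54431612 to 54445364, plus strand) had 177, 85.8, 102 and 260 CPM in WT and 156, 129, 146 and 138 CPM in Gsdmd-/-. The 4 Gsdmd-/- libraries lay between WT 3 and WT 1, and the highest WT library was 3.03 times the lowest, against 1.20 times in Gsdmd-/-. The log2 fold change was -0.14 (SE 0.292, 95% interval -0.79 to 0.51, edgeR adjusted p = 0.892). It was 0.23 without WT 4, and -0.62 without WT 2 and WT 3 (edgeR adjusted p = 0.0844), where Mmp14 was the 1 member lower at the study's cutoff.

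Mmp19, an MMP known to cut basement membrane proteins, and Timp2 were highest in WT 2 and WT 3, where Mmp14 was lowest. Mmp19 (chromosome 10, 128790910 to 128800820, plus strand) had 738, 1070, 1035 and 655 CPM in WT and 814, 868, 845 and 892 CPM in Gsdmd-/-. WT 2 and WT 3 were the highest of the 8 libraries and WT 1 and WT 4 the lowest, with all Gsdmd-/- libraries between them. The log2 fold change of -0.03 (SE 0.152, edgeR adjusted p = 0.954) turned to 0.29 (adjusted p = 0.199) without WT 2 and WT 3. At its 3′ end Mmp19 shares 789 bases with Tmem198b on the opposite strand, which had 1224 counts over the 8 libraries, and the library kit does not mark strand.

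Timp2 (chromosome 11, 118301070 to 118355740, minus strand) had 284, 433, 458 and 272 CPM in WT and 375, 359, 341 and 327 CPM in Gsdmd-/-. Here too the Gsdmd-/- libraries all lay between the higher WT 2 and WT 3 and the lower WT 1 and WT 4. The log2 fold change of -0.05 (SE 0.168, edgeR adjusted p = 0.943) turned to 0.33 (adjusted p = 0.151) without WT 2 and WT 3. Timp2 made up between 95.4% and 98.6% of the summed RPKM of the TIMPs in WT and between 96.7% and 98.6% in Gsdmd-/-.

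Timp1 (chromosome X, 20870166 to 20874735, plus strand), an inhibitor known to bind the precursor of Mmp9, was low in every library. It had 1.10, 1.71, 1.53 and 2.98 CPM in WT and 1.48, 1.18, 2.60 and 2.52 CPM in Gsdmd-/-, from 120 and 124 counts. The groups overlapped, and the log2 fold change of 0.08 (SE 0.366, 95% interval -0.73 to 0.90, edgeR adjusted p = 0.951) changed sign with single libraries left out. The interval is wide, and covers moderate differences in either direction.

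**Figure D3:**
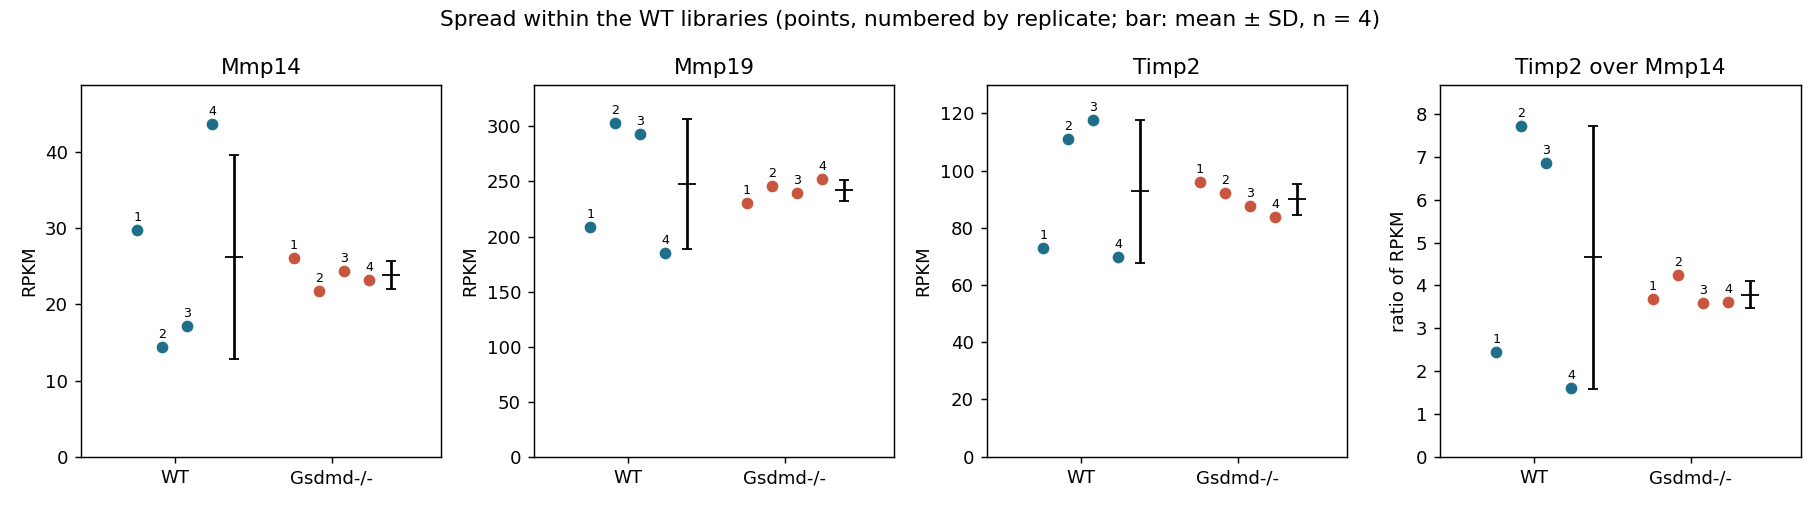
RPKM (linear axes from 0) of Mmp14, Mmp19 and Timp2 and the ratio of Timp2 to Mmp14 in each of the 4 WT (blue) and 4 Gsdmd-/- (red) libraries, with points numbered by replicate and black bars for the mean ± SD. In every panel WT 2 and WT 3 lie on one side of all Gsdmd-/- libraries and WT 1 and WT 4 on the other.

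The ratio of Timp2 to Mmp14 in RPKM, chosen after its values were seen, was 2.45, 7.71, 6.85 and 1.60 in the WT libraries and 3.68, 4.25, 3.58 and 3.62 in the Gsdmd-/- libraries. The WT libraries thus lay on both sides of a narrow Gsdmd-/- range. The coefficient of variation over 4 libraries was lower in Gsdmd-/- than in WT in 8 of the 9 members tested, the exception being Mmp2 (25.8% in WT and 37.3% in Gsdmd-/-), against 71.8% of all genes tested. For Mmp14 it was 51.1% in WT and 7.91% in Gsdmd-/-, for Mmp19 23.9% and 3.92%, and for Timp2 26.9% and 5.98%. Over all genes tested the median was 16.5% in WT and 11.0% in Gsdmd-/-. WT 1 and WT 4 were the 2 highest WT libraries for 5 members (Mmp2, Mmp8, Mmp9, Mmp12 and Mmp14), and WT 2 and WT 3 for 2 (Mmp19 and Timp2). Such a split was found in 7 of 9 members and in 58.1% of all genes tested, and neither the labels nor the counts name a batch that separates these libraries.

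Mmp13, Mmp12 and Mmp8 lie in a cluster of 10 Mmp genes within 427 kb of chromosome 9 (7272514 to 7699585, GRCm38), in the order Mmp13, Mmp12, Mmp1b, Mmp3, Mmp1a, Mmp10, Mmp8, Mmp27, Mmp20 and Mmp7. Only the 3 members were over 100 CPM in WT. Mmp27, beside Mmp8, reached 4.15 ± 0.666 CPM in WT and 3.69 ± 0.895 CPM in Gsdmd-/- (SD, n = 4), with a log2 fold change of -0.16 (edgeR adjusted p = 0.807). Mmp3, Mmp1a, Mmp20 and Mmp7 had at most 2 counts in all 8 libraries together. Next to each other on the chromosome, Mmp12 had a mean 10.8% higher and Mmp13 a mean 24.7% lower in Gsdmd-/-, of which neither passed the adjusted test, and the difference between these changes was not tested.

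**Figure D4:**
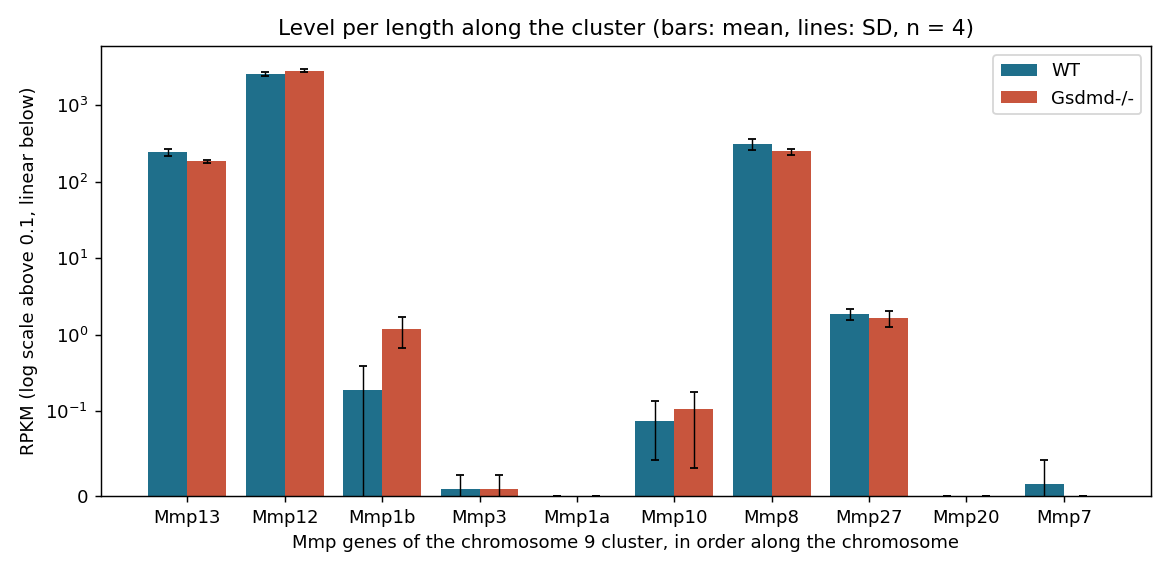
Mean RPKM (bars, with lines for the SD over 4 libraries) of the 10 Mmp genes of the chromosome 9 cluster in their order along the chromosome, in WT (blue) and Gsdmd-/- (red), on an axis that is logarithmic above 0.1 and linear below. Mmp12, Mmp8 and Mmp13 stand above the genes between and beside them, and Mmp1b was higher in Gsdmd-/- from few counts.

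Beyond the members, 17 further MMP and TIMP genes were listed, of which 3 had 0 counts in all libraries (Mmp1a, Mmp20 and Mmp24), 12 had counts but were not tested, with a mean of at most 0.672 CPM in either genotype, and 2 were tested. Mmp1b, the gene next to Mmp12, was higher at the study's cutoff. It had 11, 0, 2 and 5 counts in WT and 28, 47, 20 and 17 counts in Gsdmd-/-, without overlap, and a log2 fold change of 2.61 (SE 0.636, edgeR adjusted p = 0.142), which was 1.80 without WT 2 and WT 3. It passed an adjusted p under 0.05 with DESeq2 (0.00635), with the exact test of edgeR (0.00322) and with no filter on low counts (0.0382). Of the exons of Mmp1b, 157 bases (chromosome 9, 7369165 to 7369321) are also exon of Mmp12 on the opposite strand. Mmp12 had 2552601 counts over the 8 libraries, and strand is not marked. Mmp1a, a close copy, had 0 counts. The part of reads from Mmp12 in the counts of Mmp1b was not tested, and its value is to be read with that limit.

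Other genes of the pathway were counted from fixed lists. The counts at the study's cutoff stand against 1.54% of all genes tested that were higher and 3.28% that were lower. Of 16 genes that activate MMPs or hold them at the cell surface, 10 were tested, Plau being the most abundant, and 1 was higher at the study's cutoff and none lower. This was Itgb3, an integrin subunit, with 95.8, 139, 125 and 68.1 CPM in WT and 166, 193, 160 and 202 CPM in Gsdmd-/-, which did not overlap (log2 fold change 0.75, SE 0.194, edgeR adjusted p = 0.173). Itgb3 passed an adjusted p under 0.05 without WT 2 and WT 3 (log2 fold change 1.13, adjusted p = 0.0121), with DESeq2, with the exact test of edgeR and with no filter on low counts. Of 16 genes that inhibit or clear MMPs, 9 were tested and none was called at either cutoff, nor at an unadjusted p under 0.05. Lrp1, a receptor that takes up MMPs and the most abundant of them, had between 2142 and 4629 CPM in WT and between 1843 and 3372 CPM in Gsdmd-/-. Of 25 related proteases of the ADAM and ADAMTS families, 13 were tested, and Adam22 was higher at the study's cutoff (log2 fold change 0.65, SE 0.286, edgeR adjusted p = 0.401), a call lost without WT 2 and WT 3 (0.77) and without any 1 of WT 3, WT 4, Gsdmd-/- 1, Gsdmd-/- 2 and Gsdmd-/- 4 (down to 0.45), while the most abundant, Adam8, stood at -0.22 (SE 0.0984, adjusted p = 0.402).

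Of 30 matrix substrates, 8 were tested and 2, the basement membrane protein Nid1 and the collagen Col5a1, were lower at the study's cutoff, with none higher. Among all genes tested, 3.28% were lower and 1.54% higher at that cutoff. Of the 8 substrates, 7 had a log2 fold change below 0 (median -0.58). Both calls rested on WT 2 and WT 3. Nid1 had 25.0 and 22.7 CPM in WT 2 and WT 3 but at most 1.42 CPM in each of the other 6 libraries, and its log2 fold change went from -3.20 to 1.41 without those libraries, and that of Col5a1 from -0.63 to -0.16. Spp1 (osteopontin), an MMP substrate and the most abundant of the list, had 4572, 15912, 16736 and 3793 CPM in WT and 6695, 6711, 8066 and 6830 CPM in Gsdmd-/-. Its log2 fold change was -0.54 (edgeR adjusted p = 0.677), and 0.75 (adjusted p = 0.0196) without WT 2 and WT 3.

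Among 17 regulators of MMP genes, 15 were tested, and 1 was called at an adjusted p under 0.05. Fos, a subunit of AP-1, had 48.3, 56.9, 60.2 and 42.8 CPM in WT and 134, 119, 105 and 98.5 CPM in Gsdmd-/-. All Gsdmd-/- libraries were above all WT libraries, and the log2 fold change was 1.13 (SE 0.133, edgeR adjusted p = 0.00590), which stayed under 0.05 in each of the alternatives. At the study's cutoff 2 regulators were higher (Fos and Junb) and 3 were lower (Fosl1, Jun and Atf3), all of them members of or partners in AP-1. These counts stand against 1.54% of genes tested that were higher and 3.28% that were lower. Without WT 2 and WT 3 the calls of Fos and Fosl1 held and those of Junb, Jun and Atf3 did not, and the call of Fosl1 was lost in 7 other fits, with a log2 fold change of -0.41 without WT 4. Junb had a log2 fold change of 0.53 (SE 0.103, adjusted p = 0.0751), which was 0.44 without WT 2 and WT 3, and Jun one of -0.58 (SE 0.140, adjusted p = 0.134), which was -0.29. Single libraries ended these calls too, WT 2 or Gsdmd-/- 3 for Junb (0.48 without either), WT 3 for Jun (-0.48) and WT 3, Gsdmd-/- 1 or Gsdmd-/- 2 for Atf3 (-0.438, -0.498 and -0.493). At an adjusted p under 0.05, Junb, Jun and Atf3 all passed with DESeq2 (0.000485, 0.00988 and 0.0153) and with the exact test of edgeR, and Junb also with no filter on low counts and without WT 4. Atf3 had a log2 fold change of -0.54 (-0.32 without WT 2 and WT 3) and Fosl1, at a few CPM, one of -0.65. Spi1, a myeloid factor and the most abundant of the list, had between 454 and 649 CPM in WT and between 468 and 587 CPM in Gsdmd-/-. Whether any of these regulators bears on the levels of Mmp13 or Mmp12 was not tested.

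Markers of other cells were counted beside these results. Here too, 1.54% of all genes tested were higher and 3.28% lower at the study's cutoff. Of 12 osteoclast markers, 10 were tested, and Ctsk (log2 fold change 0.65) and Itgb3 were higher and Acp5 (-0.95) and Dcstamp (-0.63) lower at the study's cutoff, with Calcr at 0 in all libraries. Ctsk (SE 0.142, edgeR adjusted p = 0.113) did not overlap between the genotypes and kept its call in every other fit. It passed an adjusted p under 0.05 in 4 of 17 alternatives. The call of Dcstamp was lost without Gsdmd-/- 2 (-0.497). Atp6v0d2, a proton pump subunit and the most abundant of the osteoclast markers, had between 1197 and 1331 CPM in WT and between 1476 and 1567 CPM in Gsdmd-/-, without overlap (log2 fold change 0.27, SE 0.0793, edgeR adjusted p = 0.221, and 0.00871 with DESeq2). In all, 3 osteoclast markers were higher and 0 lower without overlap between the genotypes, against 3.48% and 4.12% of genes tested, and 7 of the 10 had a log2 fold change below 0 (median -0.06). The call of Acp5 rested on WT 2 and WT 3, which had 137 and 153 CPM against at most 52.2 CPM in each of the other 6 libraries, and its log2 fold change was 0.28 without them. The summed level of the osteoclast markers lay between 3061 and 3650 CPM in WT and between 3563 and 3788 CPM in Gsdmd-/-. Osteoclasts are known to make Mmp9, and the part of such cells in its level was not tested. Of 10 dendritic cell markers 5 were tested, with Clec9a lower at the study's cutoff, which rested on WT 2 and WT 3 (log2 fold change -0.95, and -0.06 without them). All 5 had a log2 fold change below 0, and 3 (Clec9a, Itgax and, named after its values were seen, Irf4) were lower at an unadjusted p under 0.05, against 7.30% of genes tested. Itgax was lower without overlap, with a log2 fold change of -0.25 (SE 0.0930, edgeR adjusted p = 0.337) and also of -0.25 without WT 2 and WT 3. Their summed level, most of it Itgax, was between 2323 and 2468 CPM in WT and between 1747 and 2159 CPM in Gsdmd-/-. Of 8 monocyte markers 7 were tested, of 8 mast cell and basophil markers 2, and of 8 endothelial markers 4, of which Cdh5 was lower at the study's cutoff (log2 fold change -0.51, and -0.38 without WT 2 and WT 3) and no other was called. The call of Cdh5 was lost there and in 7 other fits, including upper-quartile factors (-0.496) and no filter (-0.486). The endothelial sum, led by Vwf, was between 142 and 269 CPM in WT and between 134 and 212 CPM in Gsdmd-/-. The monocyte sum, led by Chil3, was 234, 82.5, 85.9 and 293 CPM in the WT libraries and between 118 and 160 CPM in Gsdmd-/-, so WT 1 and WT 4 stood above and WT 2 and WT 3 below all Gsdmd-/- libraries, as for Mmp14. The mast cell and basophil sum, led by Kit, was 72.0, 12.4, 10.7 and 61.7 CPM in the WT libraries and between 46.3 and 67.8 CPM in Gsdmd-/-, with Mcpt4 and Cma1 at 0, and it was likewise lowest in WT 2 and WT 3. The part of such cells in the level of Mmp14 was not tested.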

How the data were processed

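TruSeq libraries were prepared from BMDM RNA of 4 WT and 4 Gsdmd-/- samples, and the authors deposited their raw read counts per gene as 1 table. The processing notes name mm10, and the aligner and counting tool are not given in the sources used here. Genotypes were taken from the labels. Depth was between 14935114 and 16794810 counts, and no libraries were duplicates.

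Counts were scaled by TMM, filtered with filterByExpr and tested with glmQLFTest in edgeR 4.0.16 (R 4.3.3), with genotype as the only term, after the script was tested on simulated data. This left 12911 genes. CPM use the TMM factors, and RPKM also the exon length of GENCODE M21 (GRCm38). DESeq2 1.42.0 and limma 3.58.1 (voom) were alternatives, with other scalings, filters, libraries left out and a replicate block.

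The members and gene lists were chosen with earlier results of these data known. Named were the members, Gsdmd, and of each list the genes past either cutoff and the most abundant one. Protein sequences were not analysed here.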

Additional observations from a re-analysis of the deposited data

Results flagged for a closer look

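Spp1, listed as an MMP substrate, had 8066 CPM in Gsdmd-/- 3, where the other 3 Gsdmd-/- libraries lay between 6695 and 6830 CPM. The gap to its nearest neighbour was 0.902 of the range of that genotype, above the limit of Dixon's test for 4 samples. Among the 80 combinations of a gene and a genotype that were looked at, this was 1, and chance alone marks about 1 in 20. In WT the same gene was split between WT 2 and WT 3 on the high side and WT 1 and WT 4 on the low side.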

How the results depend on the processing

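Genes called higher and lower at an adjusted p under 0.05 (18 and 27) became 44 and 65 with no filter on low counts, 105 and 187 with DESeq2, 92 and 154 with the exact test of edgeR, 53 and 108 without WT 2 and WT 3, and 8 to 28 and 5 to 56 with 1 library left out, the most without WT 4. Genes at the study's cutoff (199 and 424) became 421 and 783 with no filter, 59 and 140 when a log2 fold change of 1 or more in size was required, 155 to 318 and 297 to 704 with 1 library left out, and 405 higher without WT 2 and WT 3. Of members, 1 was lower at an adjusted p under 0.05 with DESeq2 and with the exact test. The 2 higher at the study's cutoff became 1 with RLE factors, with limma voom and when a log2 fold change of 1 was required, 0 with at least 10 counts in every library, where Mmp9 was not tested, and 0, with 1 lower, without WT 2 and WT 3. They were 1 to 2 with 1 library left out, being 1 without WT 2, WT 3, Gsdmd-/- 1 or Gsdmd-/- 2. The log2 fold change of some genes changed sign with 1 library left out, ranging from -0.34 to 0.23 for Mmp14 (positive without WT 4), -0.15 to 0.0721 for Mmp19 and -0.16 to 0.0885 for Timp2 (both positive without WT 2 or WT 3), -0.0956 to 0.42 for Timp1 (negative without WT 1, Gsdmd-/- 3 or Gsdmd-/- 4), -0.13 to 0.0459 for Spi1 and -0.35 to 0.10 for Chil3 (both positive without WT 4). It was also above 0 for Mmp14 with voom (0.000641) and with the replicate block (0.00188). Without WT 2 and WT 3 it changed sign for Mmp19 (0.29), Timp2 (0.33), Timp1 (-0.0750), Spp1 (0.75), Nid1 (1.41), Lyz2 (-0.0153), Acp5 (0.28), Vwf (0.18) and Kit (-0.19). The cause was not tested. CPM without TMM factors kept the direction of each member. The replicate numbers of the genotypes did not pair the libraries (correlations of same-numbered deviations 0.0268, 0.182, 0.0412 and -0.201), and with the replicate block 9 genes were higher and 16 lower at an adjusted p under 0.05. Mmp9, Mmp2, Timp1 and Timp3 rest on few counts.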
